A study of Sus scrofa with 92 samples.

Results

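Fatty acid oxidation was followed in pig liver through 9 genes, PPARA, CPT1A, ACADVL, ACADL, ACADM, ACADS, HADHA, ACAA2 and ACAA1, which are 9 of the 25322 Ensembl gene rows of the count table and were found by matching pig Ensembl identifiers to gene symbols. None of the 9 is an enzyme that makes ketone bodies, so ketogenesis was described through other genes. All animals were male Yorkshire-Landrace pigs that had been fasted overnight and then went through splenectomy, chest injury, hemorrhage and a liver crush injury before resuscitation. The 18 fasted (FS) animals received no feeding, and the 5 carbohydrate prefed (CPF) animals were given a syrup bolus shortly before anesthesia. Biopsies of the edge of the liver were taken at Baseline (B) and again at 2 (FR2), 8 (FR8) and 20 hours (FR20) of resuscitation, so each animal gave a series of samples and Baseline was already an operated animal. Of the 5 animals that died, 3 were FS and 2 were CPF. No uninjured animals enter the comparisons, so time after surgery and time after hemorrhage cannot be told apart.

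In the liver, fatty acids are activated to acyl-CoA, carried into mitochondria by the carnitine shuttle and shortened in repeated rounds by acyl-CoA dehydrogenases, a hydratase, a hydroxyacyl-CoA dehydrogenase and a thiolase. Very long and branched chains are first shortened in peroxisomes. Fasting activates the pathway through the nuclear receptor PPARA, and the acetyl-CoA it yields feeds ketone body synthesis, while malonyl-CoA, made when carbohydrate is plentiful, blocks entry at CPT1A. Pigs are known for making few ketone bodies during a fast.

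The analysis used 88 of the 92 libraries, with 6877117 to 16613261 counts each. The Baseline libraries of FS animals 17, 19 and 21 were left out because they lacked albumin, the main secreted protein of hepatocytes, and the FR8 library of CPF animal 3 because it held 4388 counts. Levels are given as CPM (counts scaled to the library total) with TMM library sizes, and are compared between samples and not between genes, because gene lengths were not used. In the 88 libraries albumin reached at least 13202 CPM of all counts. Some libraries went against their timepoint label. Over the 2000 most variable genes, with all genes of the fatty acid lists set aside, 18 of the 88 libraries were most alike to the mean FS profile of a timepoint other than their own. FS animals 9, 10, 17, 19 and 21 had 2 or 3 such libraries each. In animals 17, 19 and 21 the library labelled FR8 was most alike to Baseline (r = 0.74, 0.57 and 0.75) and the library labelled FR20 to FR2 (r = 0.37, 0.45 and 0.53). For CPF animal 13 the library labelled FR20 was most alike to Baseline (r = 0.66, against -0.34 for FR20). Nothing was relabelled, and how these libraries came to stand apart was not tested. Each comparison is therefore given with all 18 FS animals and again with the 13 that remain without animals 9, 10, 17, 19 and 21. Those 13 were chosen after seeing the data and follow the common time course more closely by choice, so their smaller p-values are not independent support. Among them, animals 4, 11 and 20 still had 1 library each that was most alike to another timepoint. The FR2 and FR8 libraries of animal 11 also held the fewest genes with a count of the 88, 11882 and 12092.

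The 9 genes fell into a group that dipped after resuscitation and a group that did not (see the plot of levels by library). In FS animals CPT1A, ACADL, ACADS, ACAA2 and ACAA1 fell from Baseline to FR8, ACADVL and HADHA rose from Baseline to FR20, and ACADM and PPARA passed no comparison with all 18 FS animals. A gene passed where the adjusted p of edgeR's quasi-likelihood test, fitted over 13667 genes with a term for each animal, was under 0.05. Standard errors (SE) below are of the log2 fold change. In whole biopsies, fewer hepatocytes and less RNA per hepatocyte cannot be told apart.

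**Figure D1:**
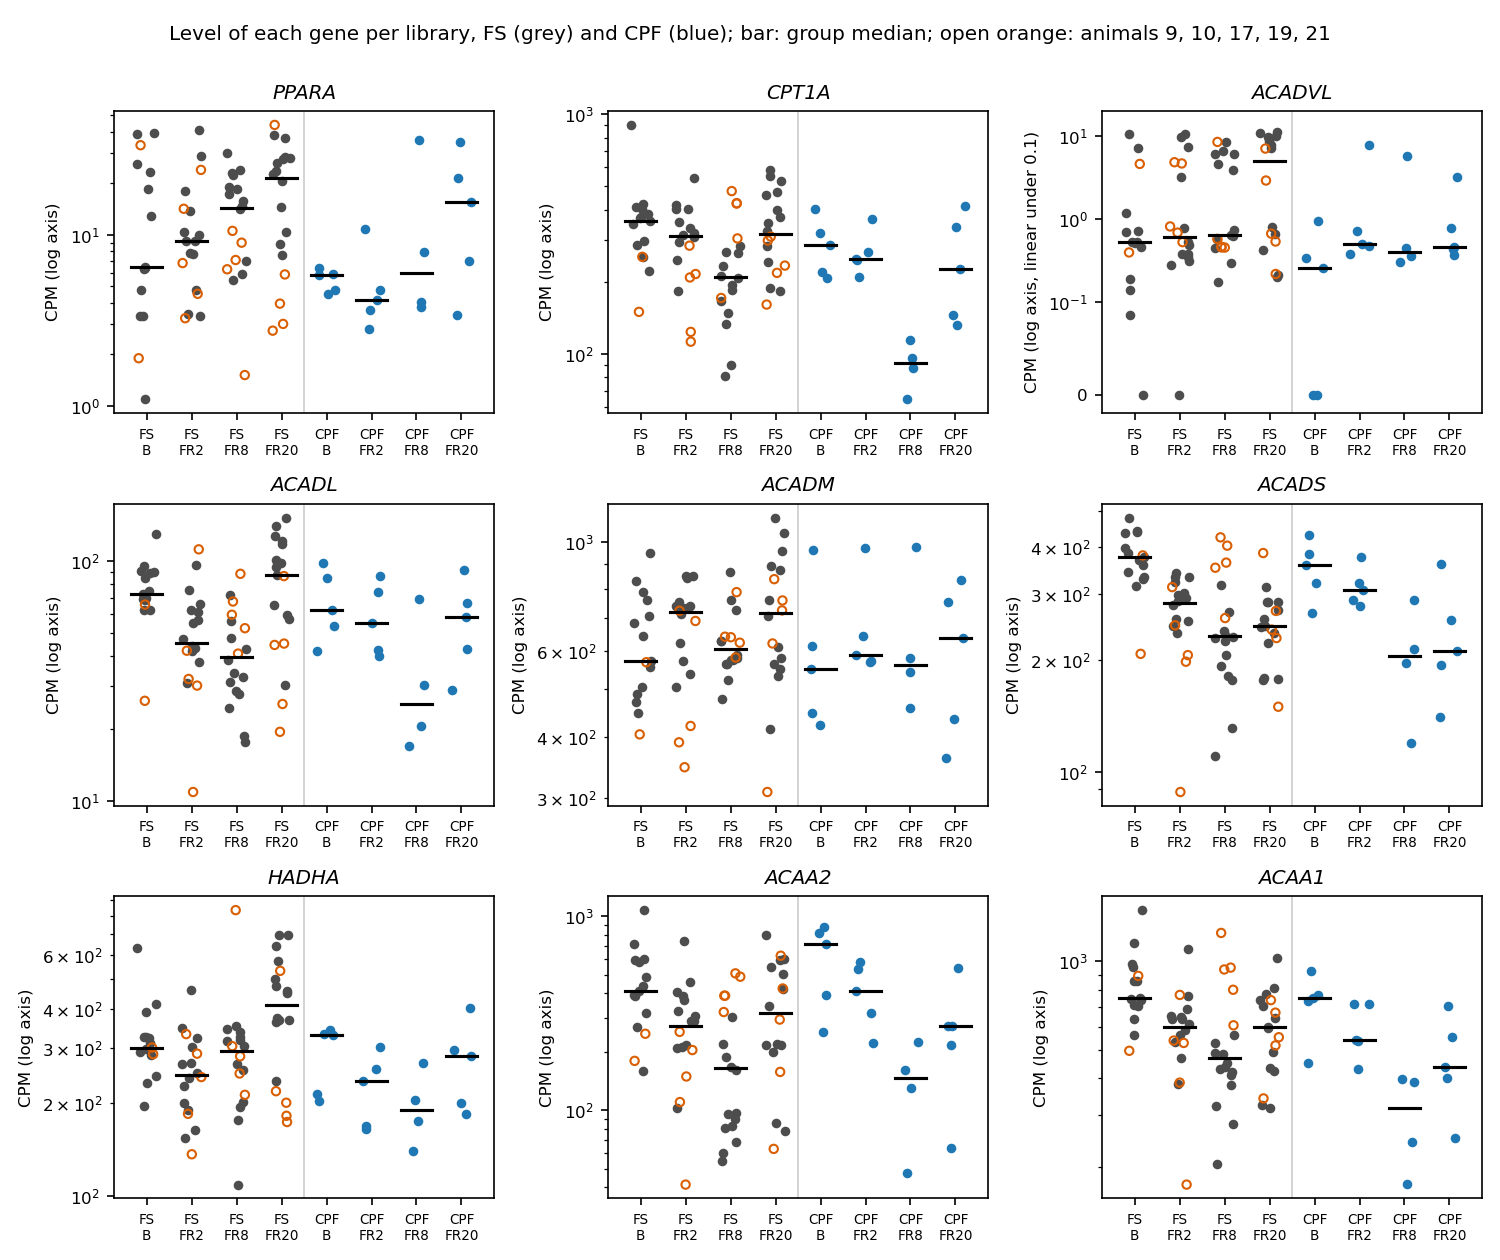
Level of each of the 9 genes in CPM (log axis) in every library by feeding group and timepoint, with open orange points for FS animals 9, 10, 17, 19 and 21. ACAA2 and CPT1A sit lowest at FR8, and ACADVL lies either at or below 1.18 CPM or at or above 2.929 CPM.

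PPARA, the fatty acid-activated receptor that turns on the genes of oxidation in the fasted liver, was scarce and varied more between animals than between timepoints. Its level ran from 1.09 to 43.9 CPM over the 88 libraries. In FS animals the lowest, median and highest levels were 1.09, 6.48 and 39.3 CPM at Baseline (n = 15), 3.25, 9.21 and 40.8 CPM at FR2 (n = 18), 1.51, 14.4 and 29.9 CPM at FR8 (n = 18) and 2.75, 21.6 and 43.9 CPM at FR20 (n = 18). The timepoints overlapped almost entirely, although 13 of 15 FS animals were higher at FR20 than at their own Baseline. The log2 fold change at FR20vB (FR20 against Baseline) was 0.71 (SE 0.30, adjusted p = 0.058). With the 13 FS animals it was 0.87 (adjusted p = 0.0277), and DESeq2 also passed it (adjusted p = 0.035). In CPF animals PPARA stood at 4.47 to 6.38 CPM at Baseline (n = 5) and at 3.38, 7.02, 15.6, 21.6 and 34.7 CPM at FR20, where 4 of 5 libraries were above every CPF Baseline (log2 fold change 1.36, SE 0.55, adjusted p = 0.197). The highest of them came from animal 13, whose library labelled FR20 was most alike to Baseline in its overall profile.

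CPT1A, the carnitine palmitoyltransferase that sets the rate of entry of long-chain fatty acids into liver mitochondria, dipped at FR8 in both feeding groups. In FS animals its lowest, median and highest levels were 150, 359 and 903 CPM at Baseline, 113, 311 and 540 CPM at FR2, 80.9, 209 and 478 CPM at FR8 and 161, 317 and 585 CPM at FR20. The 4 highest FR8 libraries were those of animals 9, 21, 19 and 10. With all 18 FS animals the fall at FR8vB was 0.56 on the log2 scale (log2 fold change -0.56, SE 0.20, adjusted p = 0.0229), and 12 of 15 animals were lower. This result did not pass without animal 2 (adjusted p = 0.0521), 6 (0.0607), 15 (0.0761) or 22 (0.0538). In the 13 FS animals the log2 fold change was -1.06 (SE 0.16, adjusted p = 3.432e-07), with 12 of 13 animals lower. CPF animals stood at 207, 220, 286, 321 and 403 CPM at Baseline and at 64.6, 87.8, 96.3 and 114 CPM at FR8. All 4 FR8 values lay below every Baseline, and CPT1A fell by 1.59 on the log2 scale (SE 0.39, adjusted p = 0.00584), which is 3.02-fold. At FR20 CPT1A was back within its Baseline range in FS animals (log2 fold change against Baseline -0.06, 95% interval -0.44 to 0.33), and all 13 remaining FS animals were higher than at FR8 (by 0.299 to 1.43 on the log2 scale).

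The acyl-CoA dehydrogenases, which take the first oxidative step on chains of different length, did not move as a group. ACADS, for short chains, stayed low after resuscitation. Its FS level was 207 to 481 CPM at Baseline (median 378), 88.5 to 341 at FR2 (median 284), 111 to 425 at FR8 (median 231) and 150 to 386 at FR20 (median 246). ACADS was lower than its own Baseline in 15 of 15 FS animals at FR2, 14 of 15 at FR8 and 14 of 15 at FR20. The log2 fold changes were -0.50 (SE 0.13, adjusted p = 0.00179), -0.63 (SE 0.14, adjusted p = 0.000204) and -0.65 (SE 0.14, adjusted p = 0.000153). In the 13 remaining animals, all 13 levels at FR20 lay below every Baseline level.

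ACADL, for long chains, dipped and returned. Its FS level ran from 26.2 to 129 CPM at Baseline (median 72.5), 10.9 to 112 at FR2 (median 45.6), 17.6 to 88.2 at FR8 (median 39.9) and 19.4 to 151 at FR20 (median 86.9). The log2 fold change was -0.55 at FR2vB (SE 0.21, adjusted p = 0.0306), -0.75 at FR8vB (SE 0.22, adjusted p = 0.00497) and 0.83 from FR8 to FR20 (SE 0.21, adjusted p = 0.00856). The ACADL call at FR2vB was lost without animal 6 (adjusted p = 0.0505), and without the 5 animals that died all 3 were lost (adjusted p = 0.085, 0.0508 and 0.114). With 13 FS animals the ACADL change was -1.25 at FR8vB and 1.44 from FR8 to FR20, with all 13 animals moving each way.

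ACADM, for medium chains, varied least of the 9, with 309 to 1121 CPM over all 88 libraries, a 3.63-fold range. Its FS medians were 571 CPM at Baseline, 718 at FR2, 606 at FR8 and 715 at FR20, and the groups overlapped throughout. At FR8vB in FS animals its log2 fold change was 0.05, with a 95% interval from -0.16 to 0.27, and at FR20vB 0.19, with an interval from -0.02 to 0.41. A fall of ACADM as large as the fall of ACADS lies outside both intervals.

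ACADVL, the very long chain enzyme of the inner mitochondrial membrane, had few counts and split into separate levels. In 59 libraries it lay at or below 1.18 CPM and in 29 at or above 2.929 CPM, up to 11.2 CPM, with none between. The higher level was found in 3 of 15 FS libraries at Baseline, 6 of 18 at FR2, 7 of 18 at FR8 and 10 of 18 at FR20, and in 0 of 5, 1 of 5, 1 of 4 and 1 of 5 CPF libraries. The level was not fixed by animal, since 17 of the 23 animals had libraries of both kinds, 1 had only high and 5 only low ones. At FR20vB in FS animals ACADVL rose by 2.11 on the log2 scale (SE 0.68, adjusted p = 0.0118), and the change was 2.45 without the 5 animals (adjusted p = 0.00575). What separates the levels was not tested.

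HADHA, the alpha subunit of the trifunctional protein that carries out the hydratase and dehydrogenase steps on long chains, rose late. Its FS level ran from 195 to 630 CPM at Baseline (median 301), 136 to 460 at FR2 (median 246), 109 to 837 at FR8 (median 293) and 173 to 697 at FR20 (median 413). HADHA was higher at FR20 than at Baseline in 13 of 15 FS animals (log2 fold change 0.43, SE 0.14, adjusted p = 0.0163). From FR8 to FR20 the change was 0.48 (SE 0.14, adjusted p = 0.0242), a call that was lost without animal 1, 2, 6, 10, 11, 14, 16 or 22 (adjusted p = 0.0514 to 0.077). In the remaining 13 it was 0.84 (SE 0.10, adjusted p = 6.946e-09), and 12 of 13 FR20 levels lay above every FR8 level. At FR2 HADHA was lower than Baseline in 14 of 15 animals (log2 fold change -0.28, adjusted p = 0.109), which passed only without the 5 animals (-0.34, adjusted p = 0.00346) or without animal 9 alone.

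The thiolases close each round of oxidation. ACAA2, the mitochondrial thiolase, showed the deepest dip of the 9 genes. Its FS level ran from 159 to 1075 CPM at Baseline (median 413), 41.4 to 749 at FR2 (median 271), 55.0 to 508 at FR8 (median 164) and 63.2 to 803 at FR20 (median 318). ACAA2 fell by 0.74 on the log2 scale at FR2vB (SE 0.27, adjusted p = 0.0214) and by 1.23 at FR8vB (SE 0.30, adjusted p = 0.000695), where 13 of 15 animals were lower. The 5 highest FR8 levels were those of animals 17, 9, 21, 10 and 19, and without those 5 the fall was 2.03 (SE 0.19, adjusted p = 3.682e-13), with 13 of 13 lower. In CPF animals ACAA2 went from 253, 392, 722, 821 and 879 CPM at Baseline to 47.7, 130, 162 and 225 CPM at FR8, again with all 4 below every Baseline (log2 fold change -2.15, SE 0.56, adjusted p = 0.00902).

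ACAA1, the peroxisomal thiolase, also had its lowest medians at FR8. Its FS medians were 753 CPM at Baseline, 597 at FR2, 468 at FR8 and 596 at FR20, and 11 of 18 FR8 levels lay below every Baseline. The log2 fold changes in FS animals were -0.53 at FR2vB (SE 0.16, adjusted p = 0.00512), -0.67 at FR8vB (SE 0.16, adjusted p = 0.00075) and -0.53 at FR20vB (SE 0.16, adjusted p = 0.00731). CPF animals held 449, 730, 748, 766 and 929 CPM of ACAA1 at Baseline and 174, 243, 390 and 399 CPM at FR8, a fall of 1.28 on the log2 scale (SE 0.31, adjusted p = 0.00601).

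**Figure D2:**
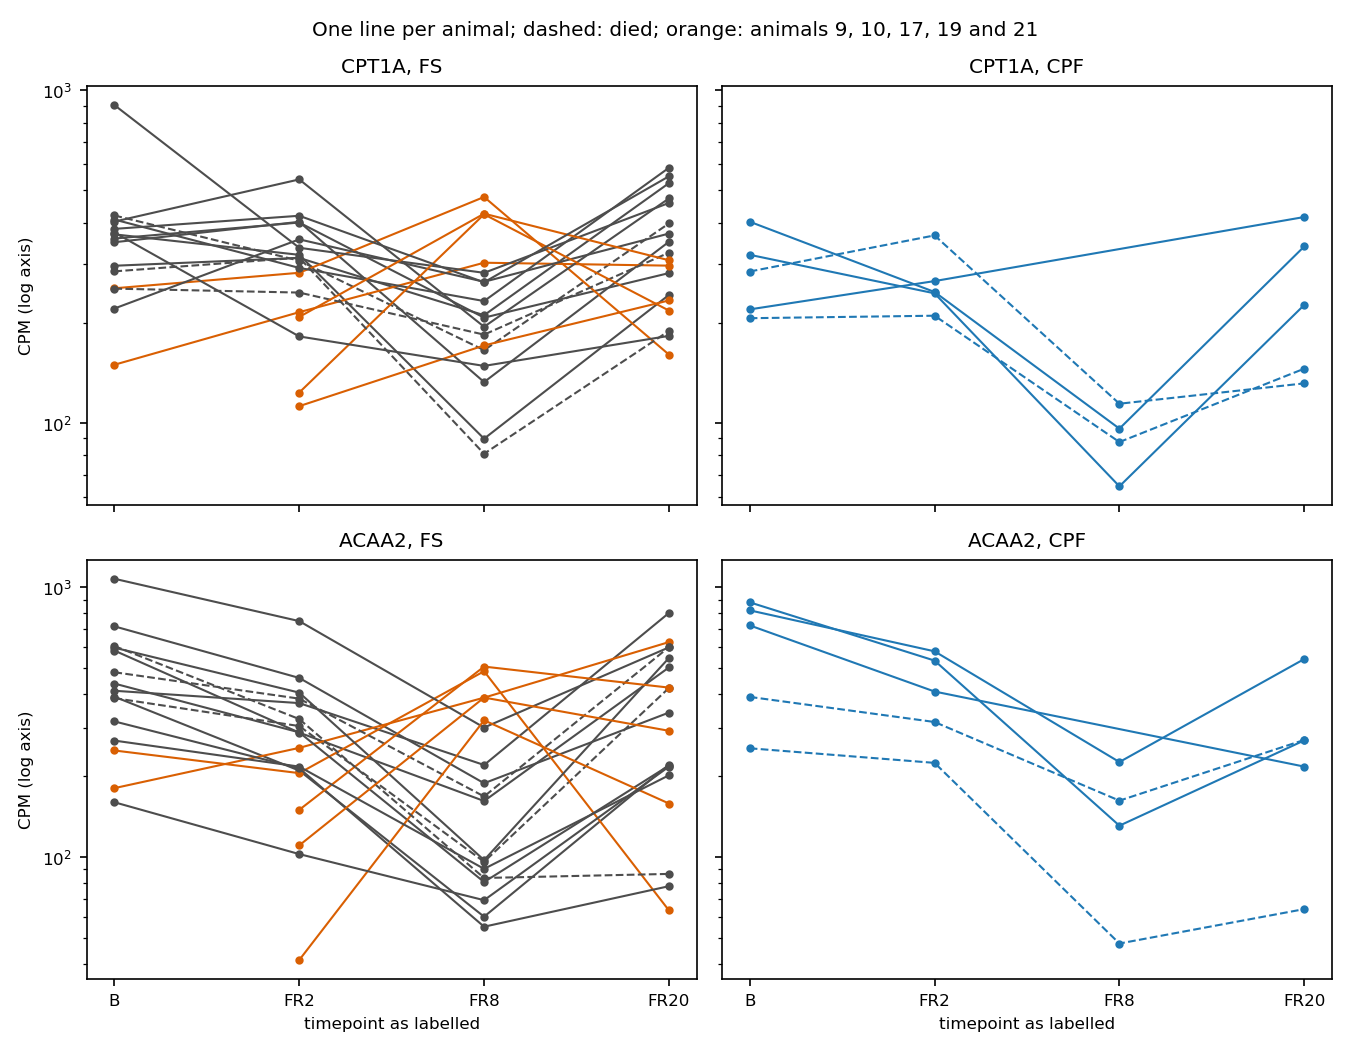
CPT1A and ACAA2 in CPM (log axis) at each timepoint, with a line for each animal by feeding group and dashed lines for animals that died. The 4 CPF animals with an FR8 library fall below every CPF Baseline, and FS animals 9, 10, 17, 19 and 21 hold the highest ACAA2 levels at FR8.

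Over all genes tested, large shares passed as well, and the counts of the 9 genes are read against them. At FR2vB in FS animals 4 of 9 fell and 0 rose, while 21.1% of all genes fell and 20.3% rose. At FR8vB 5 fell and 0 rose, against 19.5% and 19.9%, and ACAA2 alone fell at least 2-fold, as did 7.39% of all genes. At FR20vB 2 fell and 2 rose, against 16.4% and 17.4%, and ACADVL alone rose at least 2-fold (4.68% of all genes). From FR8 to FR20 2 rose and 0 fell, against 3.07% and 3.33%. The median log2 fold change of the 9 genes was -0.28, -0.56 and 0.08 at FR2, FR8 and FR20 against Baseline, beside -0.04, 0.00 and 0.04 for all genes. The shares at FR20vB lie near the background.

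Without the 5 animals the dip and the return both widened. At FR2vB 5 of 9 fell (26.9% of all genes fell), and at FR8vB 6 fell (26.1%), with HADHA joining at -0.30 (adjusted p = 0.0106). At FR20vB 3 fell and 3 rose (20.6% and 23.2% of all genes), and ACAA2 joined those below Baseline at -0.51 (adjusted p = 0.0195). From FR8 to FR20 5 genes rose, against 15.2% of all genes: ACAA2 by 1.52, ACADL by 1.44, CPT1A by 1.00, HADHA by 0.84 and ACAA1 by 0.53 on the log2 scale. In the whole FS group CPT1A and ACAA2 missed the threshold for this rise (0.50 and 0.75, adjusted p = 0.0901 and 0.0828).

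**Figure D3:**
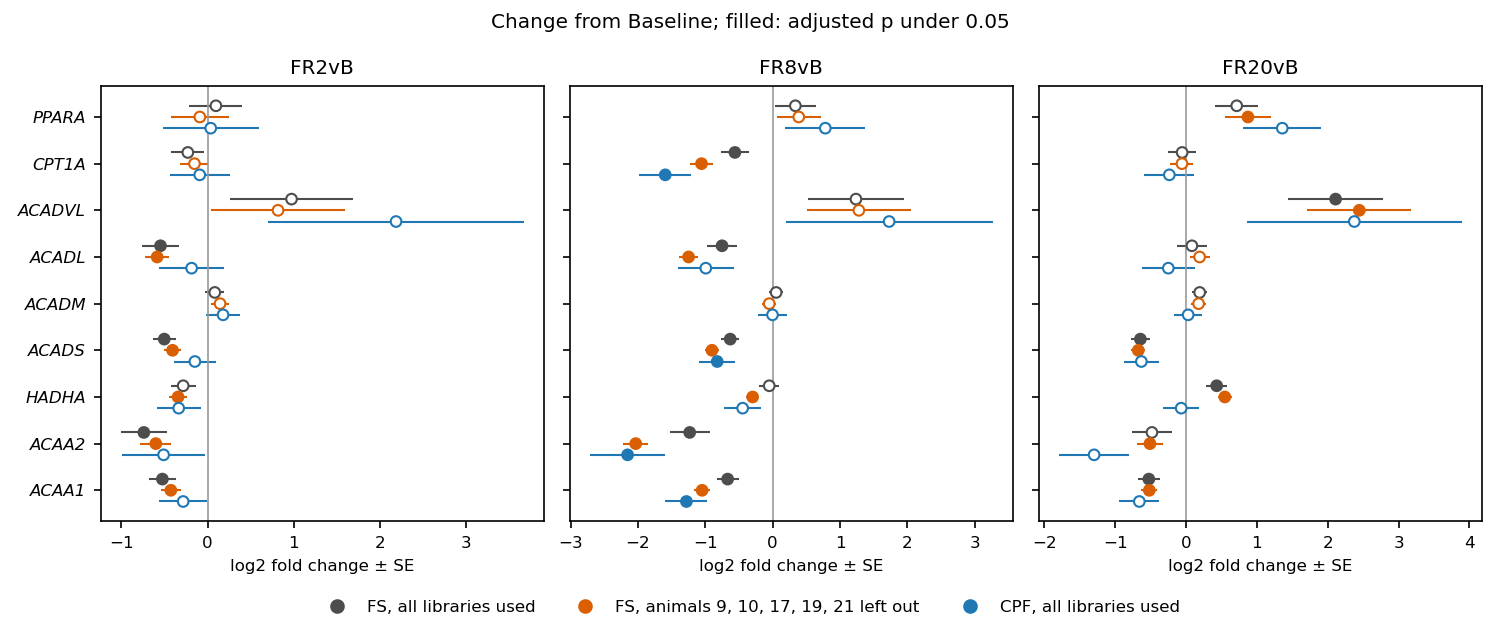
Log2 fold change against Baseline (bars, SE) of the 9 genes at FR2, FR8 and FR20 in FS animals, in FS animals without animals 9, 10, 17, 19 and 21, and in CPF animals, with filled points where the adjusted p was under 0.05. At FR8 the changes of CPT1A and ACAA2 without those 5 animals (-1.06 and -2.03) lie closer to the CPF values (-1.59 and -2.15) than those of all 18 FS animals (-0.56 and -1.23).

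In CPF animals the changes that passed were those at FR8. CPT1A, ACAA2, ACAA1 and ACADS fell, 4 of 9, with 0 rising, against 6.99% of all genes falling and 6.31% rising. CPT1A, ACAA2 and ACAA1 fell at least 2-fold, as did 5.14% of all genes. ACADS went from 266 to 432 CPM at Baseline to 119, 197, 214 and 289 CPM (log2 fold change -0.82, SE 0.27, adjusted p = 0.0308), and ACADL from 41.9 to 98.3 CPM to 16.97, 20.5, 30.4 and 69.5 CPM (-0.99, SE 0.41, adjusted p = 0.0969). ACADL was highest in animal 13. All 4 calls rested on animal 18: without it CPT1A, ACAA2, ACAA1 and ACADS had adjusted p = 0.0637, 0.0704, 0.0532 and 0.122, and ACADS was also lost without animal 3, 8 or 13 (0.0542, 0.125 and 0.0864). Without all 5 animals that died, CPF animals 7 and 8 and FS animals 2, 16 and 20, 0 of the 9 passed. That fit kept the CPF FR8 libraries of animals 13 and 18 only. It cannot tell whether the falls depend on the animals that died. The spread in this test was shared with the FS animals. With FS animals 9, 10, 17, 19 and 21 left out, the CPF fold changes of these genes moved by less than 0.01 while their errors shrank, and 5 genes fell (ACADL with adjusted p = 0.00255), against 12.1% of all genes.

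At FR2vB in CPF animals the quasi-likelihood test passed 0 of 9 (2.00% of all genes rose and 1.40% fell), with 0 (20.0% of all genes) at an unadjusted p under 0.05 and 0 by DESeq2 or the likelihood ratio test of edgeR. At FR20vB it passed 0 (0.278% rose and 0.615% fell), with 4 of 9 (16.5% of all genes) at an unadjusted p under 0.05 and 0 by the other 2 tests. ACAA2 and ACAA1 were nevertheless below their own Baseline in 5 of 5 animals there, with log2 fold changes of -1.30 (SE 0.50, adjusted p = 0.171) and -0.66 (SE 0.28, adjusted p = 0.226). Without the 5 FS animals 3 genes fell at FR20vB (4.32% of all genes), ACAA2, ACADS and ACAA1. From FR8 to FR20 the test passed 0 (0.00732% rose and 0.0146% fell), with 2 of 9 (10.9% of all genes) at an unadjusted p under 0.05, 1 by DESeq2 and 0 by the likelihood ratio test, and CPT1A rose by 1.36 without the 5 FS animals (adjusted p = 0.00523, with 2.22% of all genes rising).

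The feeding groups themselves were compared at each timepoint and in their changes, and 0 of the 9 genes passed. At Baseline 0.0342% of all genes differed between CPF and FS, and at FR2, FR8 and FR20 0% did. The differences between the groups' changes passed for 0% of all genes at each timepoint. At an unadjusted p under 0.05 the quasi-likelihood test held 2, 1, 2 and 1 of the 9 genes between groups at the 4 timepoints, beside 7.66%, 5.58%, 5.17% and 3.25% of all genes. For the changes at FR2vB, FR8vB and FR20vB it held 0, 1 and 0, beside 2.9%, 3.42% and 3.81%. DESeq2 and edgeR's likelihood ratio test also passed 0. By unadjusted p the nearest was CPT1A at FR8, at 64.6 to 114 CPM in CPF animals and 80.9 to 478 CPM in FS animals, where only animals 20 and 6 lay within the CPF range. That CPT1A difference was -1.39 on the log2 scale (SE 0.39, p = 0.00146, adjusted p = 0.763, DESeq2 adjusted p = 0.089). The difference of its changes at FR8vB was -1.03 (SE 0.43, adjusted p = 0.999). Without the 5 animals these values were -1.06 (adjusted p = 0.578) and -0.54 (adjusted p = 0.889), and that of the change of ACAA2 went from -0.92 to -0.12. PPARA at Baseline was 1.09 to 39.3 CPM in FS and 4.47 to 6.38 CPM in CPF animals, with a difference of -1.47 (SE 0.67, adjusted p = 0.619). The difference of ACADVL at Baseline, a gene with few counts, was -2.62 (SE 1.21, adjusted p = 0.62). These adjusted p-values of PPARA and ACADVL were lower than that of CPT1A at FR8.

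Animals that died and animals that lived were compared at each timepoint with a term for feeding, and 0 of the 9 genes passed, as did 0% of all genes at each of the 4 timepoints. HADHA had the smallest unadjusted p at Baseline, FR2 and FR8, and was lower in the 5 animals that died at each. Its log2 difference was -0.52 at Baseline (SE 0.18, p = 0.01, adjusted p = 0.411), -0.60 at FR2 (SE 0.21, adjusted p = 0.702) and -0.72 at FR8 (SE 0.29, adjusted p = 1). At an unadjusted p under 0.05 the quasi-likelihood test held 1, 2, 2 and 0 of the 9 genes at Baseline, FR2, FR8 and FR20, beside 8.54%, 5.52%, 2.22% and 5.22% of all genes, and DESeq2 and the likelihood ratio test passed 0. These 4 comparisons draw on the same animals.

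Ketogenesis was described through BDH1, ACAT1 and SLC16A6. By FR8 all 3 had fallen in FS animals, against 19.5% of all genes tested, whose median log2 fold change was 0.00. BDH1, which interconverts acetoacetate and 3-hydroxybutyrate, had lowest, median and highest FS levels of 43.0, 249 and 429 CPM at Baseline and 11.6, 30.1 and 307 CPM at FR8. Its fall was 0.92 on the log2 scale at FR2vB, 2.22 at FR8vB (SE 0.42, adjusted p = 2.426e-05) and 1.46 at FR20vB. In CPF animals BDH1 stood at 139 to 268 CPM at Baseline and 8.58 to 33.1 CPM at FR8, where it fell by 3.58 (SE 0.78, adjusted p = 0.00321). ACAT1, the mitochondrial acetoacetyl-CoA thiolase, fell by 0.90 at FR2vB and 1.63 at FR8vB. Within FS animals the ACAT1 changes at these timepoints had medians of -0.69 and -2.32, with a lowest value of -10.97 at both. The highest ACAT1 change from FR8 to FR20 was 10.59, and the source of these extremes was not tested. SLC16A6, a monocarboxylate transporter, fell by 1.03 at FR8vB and 1.22 at FR20vB. In CPF animals BDH1 and SLC16A6 fell at FR8vB, against 6.99% of all genes, and ACAT1 did not pass (-1.66, adjusted p = 0.122). All 4 CPF levels of ACAT1 at FR8 nevertheless lay below every CPF Baseline, and the spread in this test was shared with the FS animals. Without the 5 animals the same 3 genes fell at FR8vB in FS animals, BDH1 by 3.41, against 26.1% of all genes.

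In the list of fatty acid activation and mitochondrial uptake, 8 genes were tested. At FR2vB in FS animals 1 fell and 1 rose, against 21.1% and 20.3% of all genes. Without the 5 animals 4 fell, against 26.9%. At FR8vB 5 rose and 0 fell (median 0.59 on the log2 scale), against 19.9% and 19.5% of all genes, and in CPF animals 0 of 8 passed the quasi-likelihood test of edgeR there (3 at an unadjusted p under 0.05, against 28.4% of all genes). ACSL1, the main acyl-CoA synthetase of hepatocytes, rose by 1.13 on the log2 scale (SE 0.32, adjusted p = 0.00378), ACSL3 by 0.79, CPT1C by 0.89, SLC22A5, the carnitine transporter, by 0.67 and SLC25A20, the carnitine-acylcarnitine carrier, by 0.51. CPT1C and SLC22A5 had few counts, 2851 and 3611 over all 92 libraries. CPT2, which rebuilds acyl-CoA inside the mitochondrion, fell by 0.94 at FR2vB and 0.54 at FR20vB, while its change at FR8vB was -0.21 (adjusted p = 0.318). Without the 5 animals 5 rose and 2 fell at FR8vB, CPT2 by 0.41 and ACSL4 by 1.18. Within all FS animals with a Baseline library the ACSL4 change at FR8vB had a median of -0.97 and a lowest value of -8.81. ACACA, the enzyme that makes the CPT1 inhibitor malonyl-CoA, fell by 1.79 at FR8vB and 1.77 at FR20vB in FS animals and by 1.73 at FR8vB in CPF animals, and ACACB, its counterpart at the mitochondrial surface, passed in none of the 3 FS comparisons with Baseline (-0.61, -0.47 and -0.19).

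Other mitochondrial oxidation genes mostly fell with ACADS and ACAA2. Of 10 tested, 7 fell and 1 rose at FR8vB in FS animals (median -0.71), against 19.5% and 19.9% of all genes, and 8 fell without the 5 animals, against 26.1%, with the largest falls in ACAD10 (1.17 on the log2 scale), HADH (0.94) and ACAD11 (0.91). Within FS animals the lowest HADH change was -11.10 at both FR2vB and FR8vB, beside medians of -0.67 and -1.17. The size of the HADH fall and its rank are therefore uncertain. ETFB, a subunit of the flavoprotein that takes electrons from the dehydrogenases, fell by 0.62, 0.67 and 0.78 at FR2vB, FR8vB and FR20vB. HADHB, the partner subunit of HADHA, rose by 0.31 at FR20vB (adjusted p = 0.0217), as HADHA did by 0.43, and ECI2 rose by 0.26 at FR8vB. In CPF animals ACAD9, ACAD10 and ETFB fell at FR8vB (-1.12, -1.49 and -0.91). Among 11 peroxisomal genes 3 fell and 2 rose at FR8vB in FS animals (median -0.24), shares near the 19.5% and 19.9% of all genes, and 6 fell without the 5 animals, against 26.1%. ACOX2, an oxidase of branched chains and bile acid intermediates, fell by 1.33, and PEX11A, which acts in peroxisome division, rose by 1.00 and by 1.43 at FR20vB.

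Partners and targets of PPARA moved in opposite directions. Of 11 tested, 6 fell and 1 rose at FR8vB in FS animals (median -0.66), against 19.5% and 19.9% of all genes, and 8 fell without the 5 animals, against 26.1%. LPIN1, a phosphatase and PPARA coactivator, went from a median of 112 CPM at Baseline to 4.04 CPM at FR8 in FS animals, where it fell by 3.90 on the log2 scale (SE 0.56, adjusted p = 5.873e-07), and LPIN1 fell by 4.52 in CPF animals. PDK4, the kinase that shuts pyruvate dehydrogenase, fell by 1.99, and ANGPTL4, a secreted inhibitor of lipoprotein lipase, by 1.44. CREB3L3, a liver transcription factor of the fasting response, rose by 1.70 in FS and 2.46 in CPF animals. FGF21, a hormone secreted by the fasted liver, rose by 1.51 at FR2vB and 3.73 at FR20vB in FS animals, with 1.05 at FR8vB (adjusted p = 0.186), and HNF4A rose by 0.93 at FR2vB, with -0.33 at FR8vB and -0.37 at FR20vB (adjusted p = 0.182 and 0.151).

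**Figure D4:**
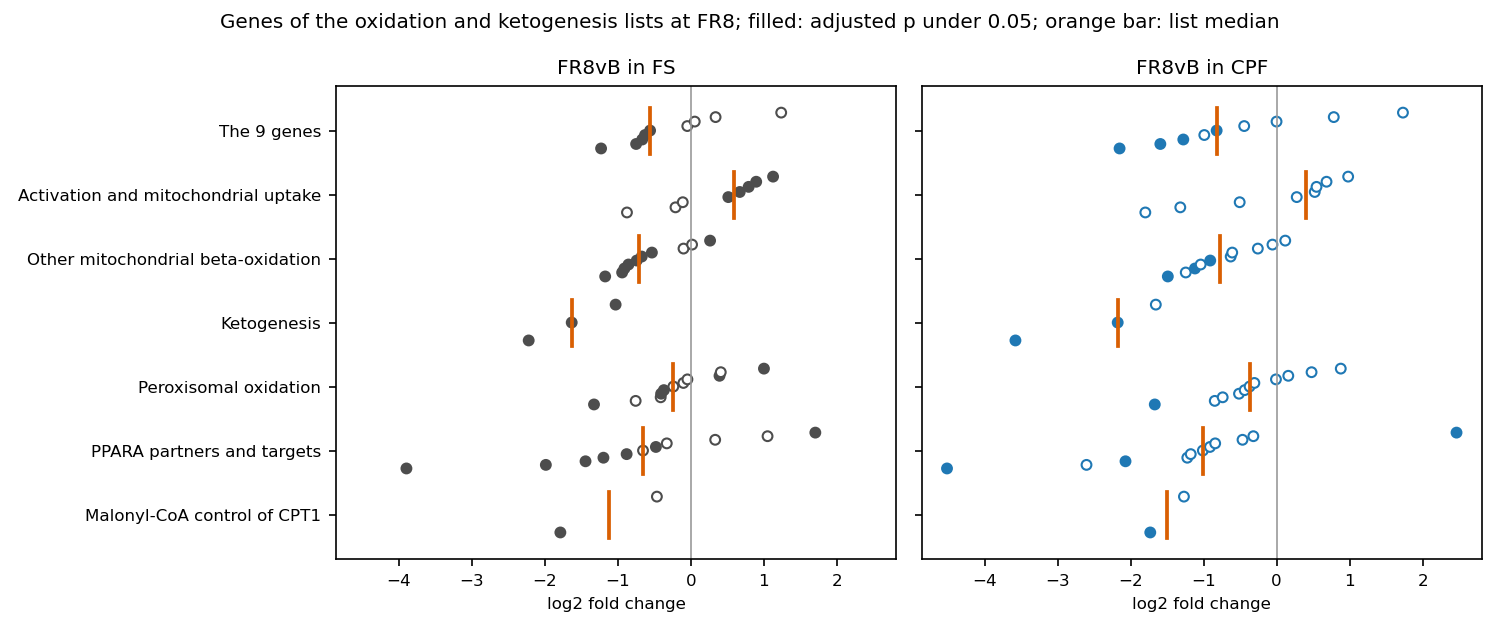
Log2 fold change at FR8vB of genes of the fatty acid lists in FS and CPF animals, with filled points where the adjusted p was under 0.05. The 3 ketogenesis genes shown lie below 0 in both feeding groups. In FS animals 5 of 8 genes of the activation and uptake list rose, against 19.9% of all genes.

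Several of the cell marker lists changed as well. The 13 measured hepatocyte markers, of 14 listed, summed in FS animals to a median of 244800 CPM at Baseline (range 111300 to 274700), 171900 at FR2 (range 76450 to 213700), 108400 at FR8 (range 73080 to 250200) and 75840 at FR20 (range 39860 to 202200), while the CPF medians were 225900, 180400, 112100 and 72770 CPM. ALB fell by 0.71, 1.43 and 2.22 on the log2 scale at FR2vB, FR8vB and FR20vB in FS animals. Of the 13 markers 7 fell and 1 rose at FR8vB in FS animals, against 19.5% and 19.9% of all genes. The median hepatocyte sum was lowest at FR20, and CPT1A, ACADL and ACAA2 had their lowest medians at FR8. That sum rests largely on ALB, with 77457719 counts over all 92 libraries, beside 17223473 for AHSG, the next marker. The median log2 fold change of the 13 markers in FS animals was -0.73 at FR8vB and -0.89 at FR20vB. From FR8 to FR20 2 of the 13 fell in FS animals, against 3.33% of all genes. The 5 Kupffer cell and macrophage markers with a row, of 10 listed, went from a median sum of 1505 to 991 CPM at FR8, and the 4 tested neutrophil markers from 7.79 to 12.5 CPM (5.25 to 22.2 at Baseline, 3.85 to 39.0 at FR8). Of these 4 neutrophil markers 3 rose at each later timepoint in FS animals, with list medians of 3.29, 2.46 and 1.95 on the log2 scale. The shares of all genes that rose there were 20.3%, 19.9% and 17.4%. At FR8vB 5 of 7 T and NK cell markers and 2 of 3 erythroid markers fell in FS animals (medians -0.60 and -1.56), against 19.5% of all genes. The 5 endothelial markers with a row, of 8 listed, had FS median sums of 221.0 CPM at Baseline and 231.0 CPM at FR8. Their CPF median sums were 211.2 and 317.3 CPM. Striated muscle markers, 6 tested of 16 listed, summed to 11.9 to 79.5 CPM at Baseline and 10.7 to 87.8 CPM at FR20 in FS animals. The 2 adipocyte markers with a row rose at FR20vB in FS animals, from a median sum of 9.57 to 24.9 CPM, against 17.4% of all genes. The part of these cell types in the changes of the 9 genes was not tested.

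Across the 88 libraries the levels of some of the 9 genes went together. Spearman's rho of the log2 levels was 0.83 for ACADS and ACAA1, 0.72 for ACADL and HADHA, 0.72 for ACAA2 and ACAA1 and 0.71 for ACADS and ACAA2. The rho of PPARA with the other 8 ran from -0.26 with ACADS to 0.41 with HADHA, and that of ACADM from 0.03 with ACADS to 0.27 with CPT1A. The genes most alike to the mean of the 9 were ETFDH (rho 0.77), which passes electrons on to the respiratory chain, the peroxisomal transporter ABCD3 (0.77), ACAD11 (0.75), SLC27A2 (0.74) and RETSAT (0.74). These values describe libraries that share animals and timepoints, and carry no test.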

How the data were processed

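RNA sequencing (RNA-seq) of liver biopsies from 23 pigs gave a table of raw counts for 25322 pig Ensembl genes, deposited by the authors. Per the labels, the submitters' processing notes name CASAVA 1.8.2, TopHat 1.5.0, SAMtools, HTSeq, edgeR 3.2.4 and the pig genome build Sscrofa10.2. Whether counting used strand is not given in the sources used here.

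From the counts, genes with a summed CPM of at least 10 were tested with edgeR 4.0.16 (R 4.3.3), TMM library sizes and the quasi-likelihood F test. Changes between timepoints came from a fit to 88 libraries with a term for each of 23 animals and fed-by-time terms, and comparisons of feeding groups and survival from a fit at each timepoint. P-values were adjusted by Benjamini-Hochberg over all genes tested, and SE is the log2 fold change divided by the square root of F. Same-numbered libraries came from the same animal: their residuals correlated with a median r of 0.21 (over 0.1 in 94 of 126 pairs). For different animals of a feeding group the median r was -0.02 (over 0.1 in 543 of 2391 pairs). The scripts were tested on simulated data. Alternatives were DESeq2 1.42.0, a likelihood ratio test, other size factors and filters, leaving out animals, restoring the omitted libraries and dropping the animal terms.

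Genes and lists were chosen with earlier results of these data known. Named genes are the 9, the ketogenesis and malonyl-CoA lists, and from each other list mainly the highest and lowest changes in FS animals and those passing in CPF animals. SLC16A1, MLYCD and others matched no row, and some listed genes are not reported here. No gene sequence or coordinate is printed.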

Additional observations from a re-analysis of the deposited data

Results flagged for a closer look

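ACADVL in CPF animal 13 stood apart from the other CPF libraries at FR2 and at FR8. Its level was 7.835 CPM at FR2, where the other 4 animals lay between 0.383 and 0.719 CPM, and 5.833 CPM at FR8, where the other 3 lay between 0.308 and 0.445 CPM. ACADM in CPF animal 18 was 973.1 CPM at FR2, above 569.8 to 643.2 CPM in the other 4 animals. Of the 36 groups of 4 or 5 libraries checked for an outlying value, chance alone flags about 1 in 20.

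The Baseline libraries of FS animals 17, 19 and 21, which lacked albumin and entered no comparison, held some of the 9 genes above every Baseline library that was used. ACADL reached 134.0, 120.9 and 120.1 CPM of all counts in them, against 28.96 to 103.8 CPM in the 15 other FS Baseline libraries. ACADVL reached 14.25 CPM in the library of animal 19, against at most 8.462 CPM. The same 3 libraries held little ACAA1 (17.3 to 22.3 CPM, against 476.5 to 1199 CPM) and CPT1A (22.2 to 39.6 CPM, against 165.9 to 725.4 CPM). The striated muscle markers tested summed to at most 148.2 CPM in any library that was used. ACTA1, a listed striated muscle marker, held 1256612 counts over all 92 libraries. Why these 3 libraries differ was not tested.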

How the results depend on the processing

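With all 18 FS animals, 4 genes passed at FR2vB, 5 at FR8vB, 4 at FR20vB and 2 from FR8 to FR20, and 4 passed at FR8vB in CPF animals. Asking also for a 2-fold change left 0, 1, 1 and 0 in FS animals. Restoring the 3 Baseline libraries without albumin gave, in FS animals, 1 at FR2vB and 3 at FR8vB and, in CPF animals, 1 at FR8vB, and using all 92 libraries gave 1, 3, 2 and 1 in FS animals and 2 in CPF animals. Without the animal block (no pairing by animal) 2 passed at FR2vB, 2 at FR20vB and 1 from FR8 to FR20. Leaving out animals 17, 19 and 21 gave 2 at FR2vB and 4 from FR8 to FR20 in FS animals and 1 at FR20vB in CPF animals. Leaving out animals 9, 10, 17, 19 and 21 gave 5 from FR8 to FR20 in FS animals, all higher. The share of all genes that rose there went from 3.07% to 15.2%. In CPF animals it gave 3 lower at FR20vB (4.32% of all genes) and 1 higher from FR8 to FR20 (2.22%). Leaving out the animals that died gave 2, 3 and 0 at FR2vB, FR8vB and FR20vFR8 in FS animals. It gave 0 at FR8vB in CPF animals, where only the FR8 libraries of animals 13 and 18 remained. DESeq2 gave 4 and 1 from FR8 to FR20 in FS and CPF animals. Fitting CPF animals alone gave 2 at FR20vB and 1 from FR8 to FR20, and leaving out the FR20 library of animal 13 gave 1 at FR20vB. Leaving out 1 animal at a time gave 1 to 4 from FR8 to FR20 in FS animals and 0 to 4 at FR8vB in CPF animals, the 0 without animal 18. The fits without the animals that died, without animals 9, 10, 17, 19 and 21, without the library of animal 13 and of CPF animals alone were added once the data had been seen. Fewer animals were fitted where animals were left out, and otherwise the cause was not tested. For the other alternatives the share of all genes passing is not given. Their counts cannot separate a change in the 9 genes from one over all genes. No result reversed its direction under any alternative.

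With 4 or 5 CPF animals a time, and timepoint labels that 18 libraries did not follow, the errors are wide. ACADVL had a median of 7 counts a library, so its fold changes are the least precise of the 9.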
